A study of Macaca mulatta with 12 samples.

Results

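M-MBC 1 cells were compared with Naive B cells 1 in the blood of 6 rhesus macaques. Both are names that the authors gave to clusters of B cells, and the abbreviation M-MBC is not expanded in the sources used here. Only cells with exactly 1 productive heavy chain contig of IgM or IgD (constant gene IGHM or IGHD) were used in both clusters, which left class-switched cells out. This gave 1700 of the 2190 M-MBC 1 cells and 1454 of the 1614 Naive B cells 1, or 3154 of the 13849 cells in the series. Of the M-MBC 1 cells used, 1185 had an IGHM and 515 an IGHD contig, and of the Naive B cells 1, 1047 and 407. Among the M-MBC 1 cells not used, 144 were switched, 283 had no heavy chain and 47 had more than 1, whereas 4 Naive B cells 1 were switched.

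The animals were of Indian origin, 2 to 3 years old, healthy and unmanipulated, and both clusters came from the same animals, so that each animal served as its own pair. A 5' gene expression library and a library of B cell receptor (BCR) contigs were made from the mononuclear cells of each animal. Batch 1 held the 2 males and batch 2 the 4 females, and effects of sex and of batch therefore cannot be told apart. Numbers of cells used ran from 28 in female 4 to 522 in female 1 for M-MBC 1 and from 86 in female 2 to 436 in male 1 for Naive B cells 1. Summed counts of the 7397 genes tested, all named and outside the immunoglobulin loci, ran from 112366 to about 2409230 per animal and cluster. The median number of transcript molecules (UMIs) per cell was 3201 to 5364 in M-MBC 1 and 3017 to 5406.5 in Naive B cells 1, and 96 cell barcodes occurred in more than 1 library.

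Naive B cells leave the bone marrow with an unmutated receptor, carry IgM and IgD together, and circulate through lymph nodes. Memory B cells have met antigen, and many carry base changes that activation-induced deaminase introduced into the V segments of their receptor. Memory cells that stayed unswitched keep IgM or IgD, so in them only the receptor's V sequence and the expression programme, not the isotype, can mark past activation.

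The defining genes of B cells were present in both clusters. MS4A1, which encodes CD20, was at 843, 1175 and 1807 CPM (normalised counts per 1e6 counts; lowest, median and highest animal) in M-MBC 1 and at 395, 592 and 1004 CPM in Naive B cells 1. The naive markers TCL1A, FCER2, IL4R, CCR7 and BACH2 were all lower in M-MBC 1, and the memory markers CRIP1, S100A4, S100A10, TNFRSF13B and CD80 were all higher, so the markers named here went with the cluster names, and members of the longer lists that did not are given with those lists. CD27, the usual human memory marker, was not among the named genes of the count table and could not be measured. The authors drew the clusters on these expression values, so gene differences between them are given as a description over animals. Calls between the clusters count genes past a threshold and are no independent test. The receptor sequences were read from the separate BCR library. Whether immunoglobulin genes of the expression table entered the clustering is not known here, so use of V genes, light chains and constant genes may not be independent of the clusters.

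The receptor sequences were first set against common V sequences of the same animal, which were taken as unmutated. For each animal, a V sequence (framework 1 to framework 3) found with 3 or more distinct CDR3s in IgM or IgD cells was taken as a reference, and each cell was compared with the nearest reference of its V gene and length. A reference was found for 1582 of 1700 M-MBC 1 cells and 1355 of 1454 Naive B cells 1. The sequences below show 1 such reference, the one with the most M-MBC 1 cells at 2 or more differences, IGHV4-122 of female 1. It was nearest to 28 M-MBC 1 cells, of which 16 matched it and 8 had 2 or more differences, and to 20 Naive B cells 1, of which 20 matched it. The stretch is CDR1 to CDR2, bases 76 to 177 of the 288 bases compared, 5' to 3'. The files give no genome position for it. Capitals in the common sequence mark the 14 hot spot bases (C in AAC, AGC, TAC or TGC and G in GTT, GCT, GTA or GCA, which contain the deaminase's preferred target on either strand), and capitals in the cells mark bases that differ from the common sequence. The 4 cells shown are those with the most differences in the stretch, and their CDR3s differ.
Common sequence: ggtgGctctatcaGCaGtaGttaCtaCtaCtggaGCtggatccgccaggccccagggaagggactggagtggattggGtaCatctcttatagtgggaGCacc
M-MBC 1 cell 1: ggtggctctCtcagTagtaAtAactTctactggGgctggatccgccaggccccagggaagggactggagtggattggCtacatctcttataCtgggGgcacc
M-MBC 1 cell 2: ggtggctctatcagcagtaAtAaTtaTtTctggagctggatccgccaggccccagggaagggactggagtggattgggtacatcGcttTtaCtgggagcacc
M-MBC 1 cell 3: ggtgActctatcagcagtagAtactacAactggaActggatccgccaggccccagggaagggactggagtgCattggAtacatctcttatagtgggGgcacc
M-MBC 1 cell 4: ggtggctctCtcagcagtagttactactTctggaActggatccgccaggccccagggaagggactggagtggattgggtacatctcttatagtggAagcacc
Over the whole V segment these cells had 13, 11, 13 and 10 differences, of which 9, 8, 7 and 4 lay in the stretch shown. Of the differences within the stretch, 3, 3, 3 and 1 lay at hot spot bases. Cell 3 shows G5A, G35A and G78A at hot spots, with positions counted from the first base shown. Of the 21 distinct substitutions in the 4 cells, 7 were found in more than 1 cell, such as G20A in cells 1 and 2 and G35A in cells 3 and 4. An allele that is not among the references and repeated changes at the same base cannot be told apart for these.

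Heavy chain V segments of M-MBC 1 cells differed from their reference more often than those of Naive B cells 1 in all 6 animals. Divergence was 0.262, 0.572 and 1.05 differing bases per 100 (lowest, median, highest animal) in M-MBC 1 and 0.0150, 0.0371 and 0.0852 in Naive B cells 1, and the ranges of the clusters did not overlap. The mean difference was 0.553 ± 0.267 per 100 bases (SD, n = 6; exact two-sided sign-flip permutation test, p = 0.03125, the smallest possible with 6 animals; adjusted p = 0.0781 over the 10 receptor measures). Female 4 had the highest values in both clusters, on 12 M-MBC 1 cells and 37 Naive B cells 1 with a reference. With references taken only from other clusters, which 5 animals allowed, the difference was 0.477.

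Most M-MBC 1 cells were nevertheless identical to a reference. Cells with 0 differences made up 67.3% ± 13.5 of M-MBC 1 and 94.9% ± 5.64 of Naive B cells 1 (SD, n = 6). Cells with 2 or more differences made up 15.0%, 25.2% and 41.7% of M-MBC 1 (lowest, median, highest) and 0.862%, 2.07% and 8.11% of Naive B cells 1, higher in 6 of 6 animals without overlap (exact sign-flip permutation p = 0.03125, adjusted 0.0781). Cells with 5 or more differences averaged 16.4% in M-MBC 1 and 0.693% in Naive B cells 1. In M-MBC 1 they were 5.20%, 12.5% and 41.7% (lowest, median, highest), the highest in female 4 on 12 cells. The most diverged M-MBC 1 cells had 27 differences in female 1 and 25 in male 2 and in female 2. The unswitched cells of M-MBC 2 and M-MZL BC, measured in the same way, had medians over animals of 2.21 and 2.41 per 100, with 20% and 16.4% of cells (medians) at 0 differences. The M-MBC 1 median of 0.572, with 70.4% of cells at 0, lay between those and Naive B cells 1, and that of CD11c+ MBC 1 was 0.802.

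Light chain V segments showed the same order. Light chain divergence was 0.170, 0.338 and 0.588 per 100 bases in M-MBC 1 and 0.0362, 0.0728 and 0.118 in Naive B cells 1 (lowest, median, highest), higher in 6 of 6 animals without overlap. The mean difference was 0.279 ± 0.166 (SD, n = 6; exact sign-flip permutation p = 0.03125, adjusted 0.0781), and female 4 contributed 6 M-MBC 1 cells to it. With references only from other clusters it was 0.524 in 5 animals.

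**Figure D1:**
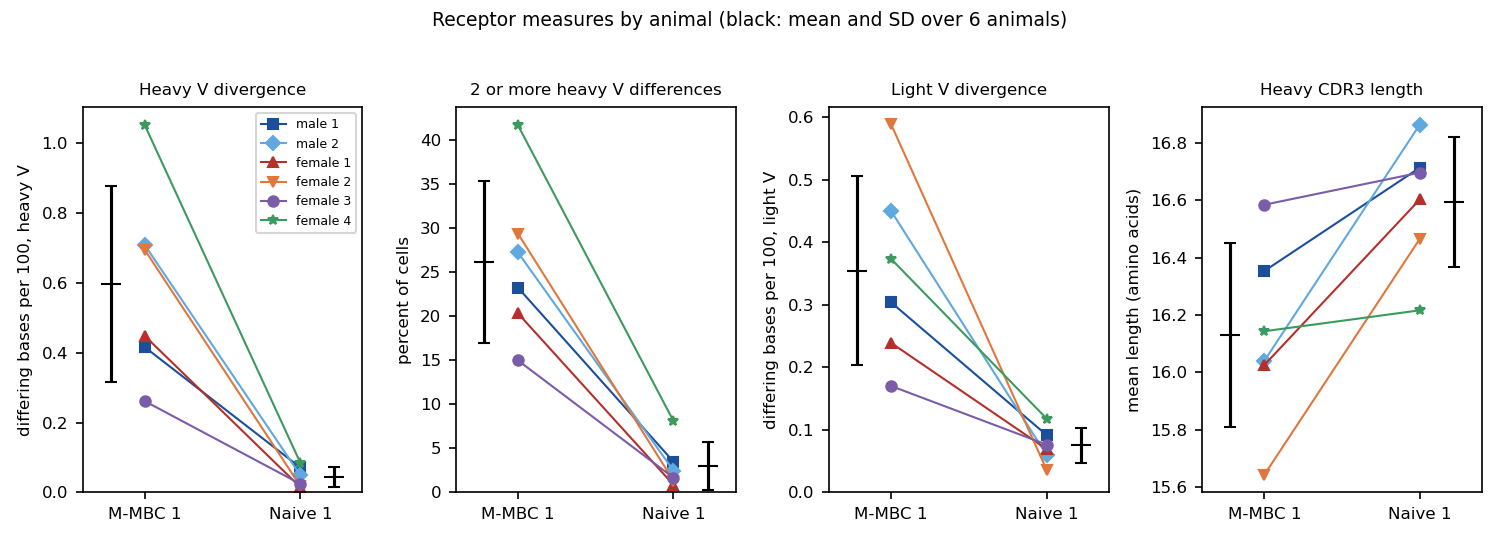
Receptor measures in M-MBC 1 (left) and Naive B cells 1 (right), 1 line per animal, with black bars for mean and SD over 6 animals. The vertical axes give differing bases per 100 in heavy and in light V segments, the percent of cells with 2 or more heavy V differences, and the mean heavy CDR3 length in amino acids; every animal is higher in M-MBC 1 in the first 3 panels and lower in the last, whose axis does not start at 0.

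The heavy V differences of M-MBC 1 cells were concentrated at hot spots, and the fewer differences of Naive B cells 1 lay there in a like share in 5 of 6 animals. Hot spot bases made up 12% of all bases compared and held 44.0% of the differences in M-MBC 1 (means over 6 animals). In Naive B cells 1 they held 40% to 50% of the 4 to 88 differences per animal in 5 animals and 0 of 9 in female 4, and the difference between the clusters was not tested. Hot spot C and G bases differed at 2.18 ± 1.01 per 100 and other C and G bases at 0.312 ± 0.200 per 100 (SD, n = 6). The log2 ratio of these rates was 2.47, 2.83 and 3.24 (lowest, median, highest animal) and averaged 2.88 ± 0.27, a 7.35-fold ratio above 0 in 6 of 6 animals (exact two-sided sign-flip permutation test, p = 0.03125). Rates in CDR1 and CDR2 were 1.95 to 5.05 times those in the framework regions, with the highest ratio in female 4 on 36 differences. Of all differences, 68.1% ± 1.89 changed the amino acid.

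CDR3, the loop formed where V, D and J segments join, was shorter in M-MBC 1. Its mean length was 15.6, 16.1 and 16.6 amino acids in M-MBC 1 and 16.2, 16.6 and 16.9 in Naive B cells 1 (lowest, median, highest). The clusters' ranges overlapped, but M-MBC 1 was lower in 6 of 6 animals, by -0.462 ± 0.335 amino acids on average (SD, n = 6; exact sign-flip permutation p = 0.03125, adjusted 0.0781). Taken on median lengths, the difference was -0.333 with p = 0.625 in the same exact test. By animal it ran from -0.825 in male 2 and -0.823 in female 2 to -0.0731 in female 4.

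None of the 10 receptor measures passed an adjusted p of 0.05. The 4 given so far had an adjusted p of 0.0781, and the other 6 had 0.402 to 1. Those 4 were already at the smallest p that the exact test allows with 6 animals. They could have passed only if more of the 10 measures had reached that p, so the threshold does not decide on them. The share of cells with a kappa light chain was 49.9% ± 12.7 in M-MBC 1 and 43.7% ± 5.22 in Naive B cells 1, higher in 5 of 6 animals (exact permutation p = 0.25). IGHD contigs made up 33.6% ± 18.9 of M-MBC 1 and 30.5% ± 18.2 of Naive B cells 1 (p = 0.28125, exact permutation test). IGHV4 genes were used by 53.7% and 52.4% of cells and IGHV3 genes by 30.4% and 27.7%, in M-MBC 1 and in Naive B cells 1 in that order. Cells in clones of 2 or more, meaning the same V gene, J gene and CDR3 bases within an animal, were 2.86% of M-MBC 1 and 0.899% of Naive B cells 1, a mean difference of 1.96 that was 0.205 without female 4. The median number of heavy chain UMIs per cell averaged 11.1 in M-MBC 1 and 11.2 in Naive B cells 1.

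Some M-MBC 1 cells had clonal relatives in other memory clusters. Of 21 clones with an M-MBC 1 cell and 2 or more cells in any cluster, 7 also held a cell of CD11c+ MBC 1, 6 of M-MBC 2, 3 of M-MZL BC and 1 of C-MBC 1, and 1 held a switched cell. The 8 clones with a Naive B cells 1 cell held no cell of another cluster. No M-MBC 1 clone had more than 3 cells. The counts were not tested, and the share of relatives depends on how many cells of each cluster were sampled.

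One heavy V gene was used at different rates. Of 7 IGHV genes with enough cells for the edgeR test, 1 was called (14.3%), IGHV4-169. It was carried by 3.72%, 5.24% and 11.8% of M-MBC 1 cells and by 1.16%, 2.69% and 5.23% of Naive B cells 1 (lowest, median, highest animal). The ranges overlapped, but M-MBC 1 was higher in 6 of 6 animals, with 101 cells against 45 (log2 difference 1.11 ± 0.18 SE, edgeR adjusted p = 0.000174). It was also the 1 gene called among 47 genes with 20 or more cells, among 91 genes without a filter, and in each fit without 1 animal. Without the animal as a block it was not called.

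The difference was also present in cells identical to a reference. Among cells with 0 heavy V differences, IGHV4-169 made up 3.91%, 5.93% and 13.5% of M-MBC 1 and 1.31%, 1.83% and 5.17% of Naive B cells 1, higher in 5 of 5 animals with 10 or more such cells. It was again called by edgeR, as 1 of 39 genes tested. The gene with the most cells over both clusters was IGHV4-122, with 4.93% ± 3.57 of M-MBC 1 and 5.98% ± 4.00 of Naive B cells 1 (SD, n = 6), and it was not called. Assignment among near-identical IGHV4 genes remains uncertain for all of them.

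**Figure D2:**
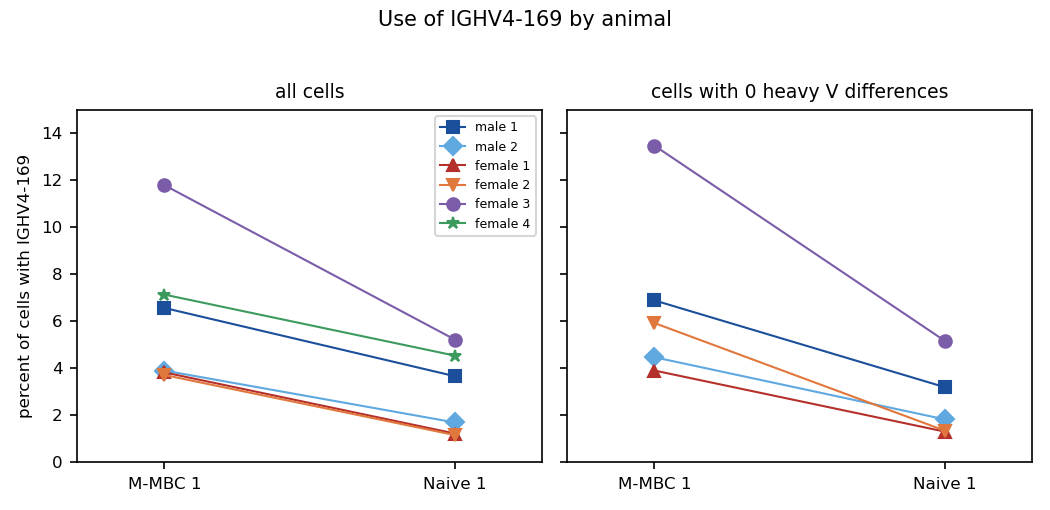
Percent of cells whose heavy chain uses IGHV4-169, in M-MBC 1 (left) and Naive B cells 1 (right) of each animal, over all cells (6 animals) and over cells with 0 heavy V differences (5 animals; female 4 had 5 such M-MBC 1 cells). M-MBC 1 lies above Naive B cells 1 on every line, and female 3 is highest in both panels.

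No IGHJ gene was called (0 of 7 tested, background 0%; edgeR, 1 gene at an unadjusted p under 0.05). That gene was IGHJ1, used by 3.10% ± 1.60 of M-MBC 1 and 5.31% ± 1.31 of Naive B cells 1 and lower in 6 of 6 animals (adjusted p = 0.273). Of 50 light chain V genes with 20 or more cells, 1 was called (2%), IGLV6-110, with 3 cells in M-MBC 1 and 17 in Naive B cells 1 (edgeR adjusted p = 0.0207). The call was lost in the fit without any 1 of the 6 animals.

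Gene expression differed widely between the clusters. Of 7397 genes fitted with edgeR, 1936 (26.2%) lay past an adjusted p of 0.05 in counts summed per animal, with the animal as a block, 1018 higher (13.8%) and 918 lower (12.4%) in M-MBC 1. Since the clusters were drawn on these values, nothing is read from the size of that number, and a gene called higher or lower between the clusters is one past this threshold. A log2 difference above 1 was found for 291 of the genes that rose, and one below -1 for 191 of those that fell, 482 in all. The ranges of the 6 animals did not overlap for 252 genes (3.41%). Without TMM scaling 1229 were higher and 691 lower, and the median log2 difference of all genes was 0.06 in place of -0.02, so small differences in either direction depend on the scaling. The sums used here do not tell apart fewer cells with a transcript and less of it per cell. The share of cells with a transcript was not examined.

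The largest rise among the genes named by rule was in TOX2. TOX2, a nuclear factor of the HMG-box family, had 40.1, 120 and 229 CPM in M-MBC 1 (lowest, median, highest animal) and 0, 1.73 and 7.73 CPM in Naive B cells 1 (log2 difference 5.36 ± 0.27 SE). ITGAX, which encodes the integrin chain CD11c, had 118, 236 and 375 CPM in M-MBC 1 and 4.46, 10.5 and 16.1 CPM in Naive B cells 1 (4.59 ± 0.17). The groups did not overlap for either gene. TNFRSF18, the costimulatory receptor GITR, had 73.2, 81.2 and 188 CPM in M-MBC 1 and 0, 2.83 and 15.6 CPM in Naive B cells 1 (4.81 ± 0.25).

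The other 7 of the 10 largest rises lay between 3.47 and 4.44 on the log2 scale. FGR, a Src-family kinase, had a median of 107 CPM in M-MBC 1 and 4.58 CPM in Naive B cells 1, and CD80, a ligand of CD28 and CTLA4 on T cells, 33.0 and 2.61 CPM in the same order. ABCC4, a membrane transporter of cyclic nucleotides, and METRNL, a secreted factor, did not overlap between the clusters either. RGS16, which dampens G protein signalling, and PLAC8 were higher in 6 of 6 animals but overlapped. DLGAP1, known as a scaffold protein of synapses, had 81.3, 147 and 370 CPM in M-MBC 1 and 6.69, 7.31 and 15.5 CPM in Naive B cells 1 (4.07 ± 0.20).

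The largest rises were not particular to M-MBC 1 among memory clusters, and all of the 10 had a higher median in CD11c+ MBC 1. Median ITGAX levels were 242 CPM in M-MBC 1 and 10.7 CPM in Naive B cells 1 when scaled over these clusters together, beside 704 CPM in CD11c+ MBC 1, 242 CPM in M-MBC 2, 222 CPM in C-MBC 1 and 63.5 CPM in M-MZL BC. TOX2 had medians of 124 CPM in M-MBC 1, 424 CPM in CD11c+ MBC 1, 83.6 CPM in M-MBC 2, 82.7 CPM in C-MBC 1 and 3.72 CPM in M-MZL BC. DLGAP1 had medians of 151 CPM in M-MBC 1, 685 CPM in M-MBC 2, 319 CPM in C-MBC 1 and 307 CPM in M-MZL BC. These levels are given as a description, since the clusters were drawn on the same values.

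The largest fall among the genes named by rule was in AKAP12. AKAP12, a scaffold for protein kinase A, had 0, 0.816 and 4.66 CPM in M-MBC 1 and 11.6, 53.2 and 91.5 CPM in Naive B cells 1 (log2 difference -4.86 ± 0.34). CR2, the complement receptor CD21 that lowers the threshold of the B cell receptor, had 0, 5.86 and 27.7 CPM in M-MBC 1 and 34.0, 84.3 and 100.4 CPM in Naive B cells 1 (-3.10 ± 0.33). The groups did not overlap for either gene, although CR2 in male 1 was 27.7 CPM in M-MBC 1 and 34.0 CPM in Naive B cells 1. GAB1, an adaptor of PI3-kinase signalling, and ST6GALNAC3, a sialyltransferase, fell by 3.97 and 3.72 on the log2 scale. The other 6 of the 10 largest falls, from DPYD, an enzyme of pyrimidine breakdown, to TP53INP1, a stress-response gene, lay between -3.05 and -2.80.

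**Figure D3:**
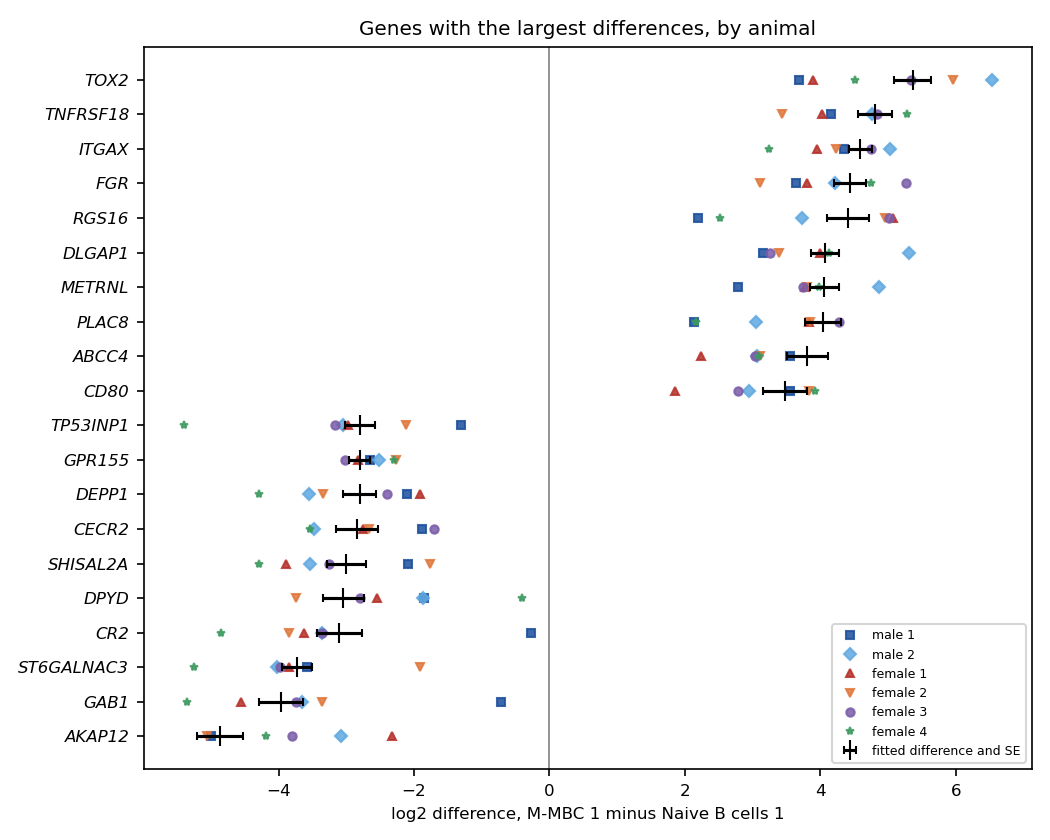
Log2 difference, M-MBC 1 minus Naive B cells 1, for the 10 genes that rose most and the 10 that fell most, by animal (coloured symbols) with the fitted difference and its SE (black). All symbols of the upper 10 genes lie above 0 and all of the lower 10 below it, with CR2 and GAB1 in male 1 and DPYD in female 4 nearest to 0.

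Of 22 naive and resting B cell genes tested, 16 were lower and 3 higher in M-MBC 1, with a median log2 difference of -0.94 beside -0.02 over all genes. For this and the following lists, the shares over all genes were 13.8% higher and 12.4% lower. The 3 higher were SKAP1, BCL7A and PLPP5, at 1.03, 0.79 and 0.42. FCER2, the low-affinity IgE receptor CD23, had 20.8, 89.3 and 169 CPM in M-MBC 1 and 174, 567 and 637 CPM in Naive B cells 1 (-2.70 ± 0.19), without overlap. CCR7, a chemokine receptor that guides entry into lymph nodes, fell by 2.49 on the log2 scale. IL4R fell by 1.94 and BACH2, a repressor that keeps B cells from plasma cell fate, by 1.18. Of 6 transitional genes tested, 4 were lower and 0 higher, among them VPREB3, a relative of the surrogate light chain, with medians of 6.80 CPM in M-MBC 1 and 40.8 CPM in Naive B cells 1.

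Of 18 memory B cell genes tested, 16 were higher and 1, RASSF6, was lower, with a median of 1.46. S100A10, a calcium-binding protein, had 471, 898 and 1137 CPM in M-MBC 1 and 94.3, 135 and 210 CPM in Naive B cells 1 (2.61 ± 0.12), and S100A4 rose by 2.90 ± 0.16. CD86, the partner of CD80, had 80.0, 124 and 171 CPM in M-MBC 1 and 6.69, 11.9 and 23.1 CPM in Naive B cells 1 (3.25 ± 0.19). The groups did not overlap for any of these 3 genes. Among genes known from atypical and CD11c+ B cells, 10 of 11 tested were higher and 0 lower (median 1.88), including FCRL5, TOX and the inhibitory receptor LILRB1. TBX21, FCRL3, FCRL4 and CXCR3 of that list were too low to test.

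Genes of IgM memory and marginal zone cells split. Of 13 tested, 6 were higher and 6 lower. TNFRSF13B, the BAFF and APRIL receptor TACI, had 18.3, 45.6 and 138 CPM in M-MBC 1 and 0, 4.18 and 17.9 CPM in Naive B cells 1 (3.27 ± 0.33), and CD1C, which presents lipids, rose by 1.05 ± 0.14. NOTCH2, the receptor that directs marginal zone fate in mice, rose by 0.53, with its partner RBPJ at 0.56, its target HES1 at 0.78 and its regulator DTX1 at 0.96. The complement receptors CR1 and CR2 fell by 1.51 and 3.10, and CD9 fell by 1.53 ± 0.14. The rise of TACI stood beside a fall of TNFRSF13C, the BAFF receptor that sustains resting B cells, by 1.51.

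Of 20 genes of receptor signalling tested, 9 were higher and 3 lower (median 0.23), beside 13.8% higher and 12.4% lower over all genes. PIK3AP1 and RASGRP1, which carry signals from the receptor to PI3-kinase and Ras, rose by 1.24 ± 0.15 and 1.03 ± 0.15. The kinases SYK, BTK and BLK were not called, at 0.09, -0.07 and -0.05. The receptor's own chains went opposite ways, CD79A at 0.46 and CD79B at -0.50. Inhibitory co-receptors included 7 of 13 higher and 4 lower. PDCD1 (PD-1) had 36.6, 83.2 and 169 CPM in M-MBC 1 and 5.12, 11.2 and 35.7 CPM in Naive B cells 1 (2.72 ± 0.21), without overlap, and PECAM1, BTLA, FCRL1 and CD72 fell by 0.48 to 1.66.

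Genes of the TNF receptor family and NF-kB were lower for 9 of 15 tested and higher for 3. LTB (lymphotoxin beta), TNFAIP3 (A20, which limits NF-kB) and CD40, the receptor of T cell help, fell by 1.88, 1.58 and 1.49, and NFKBIA and NFKB2 by 0.95 and 0.91. TNFSF9 (the ligand of 4-1BB), TNFRSF1B and TNFRSF13B rose. Of 8 genes of Toll-like receptors and their partners, 4 were higher and 1 lower, with TLR9, the sensor of CpG DNA, at 18.0, 19.0 and 40.0 CPM in M-MBC 1 and 1.49, 4.63 and 9.85 CPM in Naive B cells 1 (2.23 ± 0.29). Homing genes divided into 8 higher and 6 lower of 15. The integrin chains ITGB2, ITGAL, ITGB1 and ITGB7 rose by 0.94 to 1.62 and GPR183, the oxysterol receptor that places B cells at follicle borders, by 1.05, while CXCR4, ITGA4 and S1PR1 fell by 0.62 to 1.28.

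Transcription factors were higher for 10 and lower for 7 of 24 tested, beside 13.8% higher and 12.4% lower over all genes. POU2F2, ID3, RUNX1 and ID2 rose by 0.77 to 1.11, and BACH2, IRF4, POU2F1, TCF4, FOXO1, PAX5 and EBF1 fell by 0.34 to 1.18. Immediate early genes, which respond within minutes to signalling and also to handling of cells, were higher for 11 and lower for 3 of 19. EGR2 rose by 2.03 (higher in 6 of 6 animals), EGR1 by 1.32 (higher in 4 of 6) and the 3 NR4A genes by 0.73 to 1.09, whereas CD69 and JUN fell by 0.87 and 0.68. Among survival genes BCL2 fell by 0.94 ± 0.11 and BCL2A1 rose by 0.95 ± 0.11, with 4 of 12 higher and 2 lower.

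Ribosomal protein genes were lower for 17 of 20 tested and higher for 0, with a median of -0.30. RPS19 had 3253, 4068 and 5099 CPM in M-MBC 1 and 4364, 5741 and 7894 CPM in Naive B cells 1 (-0.52 ± 0.05). The share of UMIs from ribosomal protein genes per cell, computed by the authors, was lower in M-MBC 1 in 6 of 6 animals, by 3.25 percentage points on average. Oxidative phosphorylation genes had 2 higher and 1 lower of 25, and glycolysis genes 5 higher and 1 lower of 14, with the glucose transporters SLC2A1 and SLC2A3 at 1.37 and 0.90. Over all genes 13.8% were higher and 12.4% lower, and a count near these shares says nothing about a list. Interferon response genes had 3 higher and 2 lower of 16, and secretory and plasma cell genes 1 higher and 1 lower of 13. MHC class II and presentation genes had 3 higher and 5 lower of 15, a larger share lower than over all genes. Cell cycle genes had 1 higher and 2 lower of 3, and mutation and germinal centre genes 0 higher and 2 lower of 7, both on few tested genes.

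**Figure D4:**
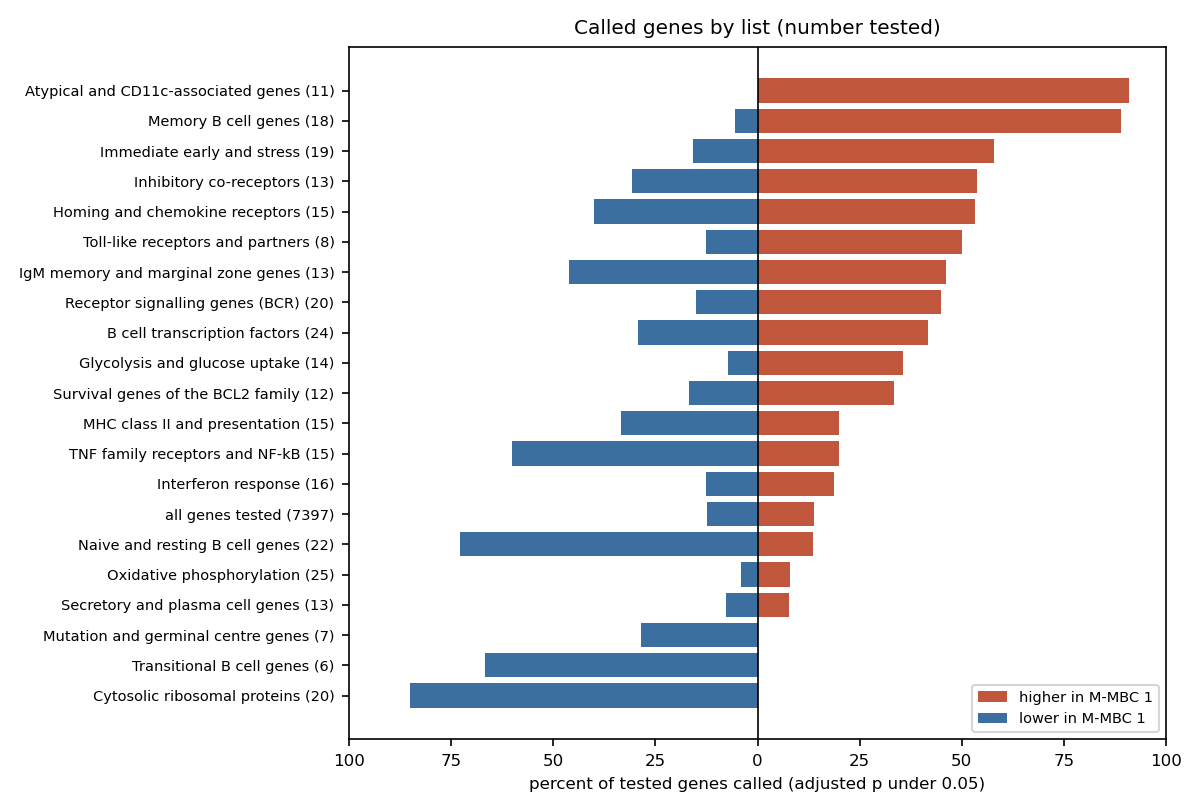
Percent of the tested genes of each list that were called higher (red, to the right) or lower (blue, to the left) in M-MBC 1 than in Naive B cells 1, for lists with 6 or more tested genes and for all 7397 genes; the number tested is in parentheses. Atypical and memory genes reach furthest to the right, ribosomal protein and naive genes furthest to the left.

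Markers of other cell types were examined beside these differences. The summed monocyte list was at 192, 260 and 442 CPM in M-MBC 1 and 42.4, 118 and 165 CPM in Naive B cells 1, higher in 6 of 6 animals, with 2 of 3 tested genes called, TYROBP and LYZ. S100A12 was at 0 in both clusters, and CD14 had medians of 1.14 CPM in M-MBC 1 and 0.386 CPM in Naive B cells 1. Summed T cell markers were at 116 CPM in M-MBC 1 and 128 CPM in Naive B cells 1 (medians), but the sum was higher in M-MBC 1 in 4 of 6 animals. Of 3 tested members, CD8A and LCK were called lower. CD3D was not called, with medians of 25.8 CPM in M-MBC 1 and 18.4 CPM in Naive B cells 1. Summed NK markers had medians of 94.9 and 46.5 CPM in the same order. In M-MBC 1 CST7 had the highest median of that list, with 228 CPM in female 3 and 5.35 to 38.2 CPM in the other 5 animals. In Naive B cells 1 GZMB had the highest median, 21.2 CPM, beside 8.38 CPM for CST7. HBA, a red cell gene, reached 1003.5 CPM in M-MBC 1 of male 2 and at most 54.9 CPM in that of the others, and its log2 difference of 2.24 was 0.70 without male 2. Summed dendritic cell markers had medians of 23.6 CPM in M-MBC 1 and 44.0 CPM in Naive B cells 1, with CLEC9A, CLEC10A and XCR1 at 0. Their part in the gene differences was not tested.

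The number of heavy V differences, which was read from the BCR library, was then set against gene expression within M-MBC 1. Cells with 2 or more differences (called diverged below, 346 cells) were compared with cells with 0 (undiverged, 1147 cells) in 5 animals, and female 4, with 5 cells of each kind, was left out. Of 6009 genes tested, edgeR called 123 (2.05%), 64 higher (1.07%) and 59 lower (0.982%) in diverged cells, with the animal as a block. DESeq2 called 29 of these 123. No gene was called without the block (104 at an unadjusted p under 0.05, edgeR), 58 without female 1 and 74 without male 1, so the number rests on pairing and on these animals. Depth was alike, with medians over animals of 4687 UMIs per cell in diverged and 4739 in undiverged cells.

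DLGAP1 led the genes that were higher in diverged than in undiverged M-MBC 1 cells in every animal. It had 341 and 819 CPM in diverged cells of males 1 and 2 and 488, 200.5 and 318 CPM in those of females 1 to 3, against 81.0, 192, 48.4, 27.4 and 32.5 CPM in undiverged cells of the same animals in the same order. Diverged cells were higher in 5 of 5 animals without overlap (log2 difference 2.71 ± 0.15 SE, edgeR adjusted p = 5.04e-19). Naive B cells 1 had 6.71 to 15.8 CPM. The level in undiverged cells exceeded that in Naive B cells 1 by 2.87 ± 0.26 on the log2 scale.

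SPAG16, known as a protein of sperm and cilia, showed the same order. It had 137, 368, 250.4, 111 and 359 CPM in diverged cells of males 1 and 2 and females 1 to 3, against 60.4, 95.2, 39.0, 24.2 and 41.1 CPM in undiverged cells (2.35 ± 0.16, edgeR adjusted p = 4.92e-15). CD86 had 166, 280, 382, 141 and 191 CPM in diverged cells of these animals in turn, against 95.3, 132, 93.5, 70.9 and 60.8 CPM in undiverged cells (1.45 ± 0.14, edgeR adjusted p = 7.36e-10). Neither gene overlapped between diverged and undiverged cells. In Naive B cells 1 the medians were 13.4 CPM for SPAG16 and 9.85 CPM for CD86.

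Among the lists, memory B cell genes were higher in diverged cells for 8 of 17 tested and lower for 0, with a median of 0.38 beside 0.01 over all genes. Over all genes tested by divergence, 1.07% were higher and 0.982% lower. S100A6 rose by 1.02 ± 0.13, S100A11 by 0.85 ± 0.14, ANXA2 by 0.73 ± 0.13, S100A10 by 0.54 ± 0.07 and VIM by 0.38 ± 0.06 (edgeR adjusted p of 0.000344 or less for each). S100A6 had a median of 400 CPM in diverged cells, 175 CPM in undiverged cells and 146 CPM in Naive B cells 1, so for this gene undiverged cells lay near naive ones. Ribosomal protein genes were higher in diverged cells for 7 of 20 and lower for 0 (median 0.12), the opposite of their direction against Naive B cells 1, and the ribosomal share of UMIs was higher in 5 of 5 animals by 0.712 percentage points (exact sign-flip permutation p = 0.0625, the smallest possible with 5 animals). CCR7 and BCL2, both lower in M-MBC 1 than in Naive B cells 1, were higher in diverged than in undiverged cells by 0.94 ± 0.16 and 0.51 ± 0.11 (edgeR adjusted p = 0.000116 and 0.00444).

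TNFSF9, GADD45A, a stress-response gene, and BICDL1, an adaptor of vesicle transport, were higher in 5 of 5 animals by 1.75 ± 0.23, 1.82 ± 0.23 and 1.70 ± 0.25 (edgeR adjusted p of 8.26e-06 or less). HBA had a larger difference, 3.34 ± 0.47, but 4106 CPM in diverged cells of male 2 and at most 104 CPM in those of the other animals. It was not called by DESeq2, and without male 2 the difference was 0.49 and not called.

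Other genes were lower in diverged cells. SNTB1, a syntrophin that anchors membrane complexes, had 43.9, 24.5, 8.78, 40.8 and 27.2 CPM in diverged cells of males 1 and 2 and females 1 to 3, against 307, 96.9, 65.4, 108 and 52.2 CPM in undiverged cells (-2.10 ± 0.23, edgeR adjusted p = 8.35e-09), without overlap. Its median in Naive B cells 1 was 11.2 CPM, so undiverged M-MBC 1 cells held more than either of the others. The inhibitory receptor LILRB1 had the same order, with medians of 49.1 CPM in diverged cells, 141 CPM in undiverged cells and 30.1 CPM in Naive B cells 1 (diverged minus undiverged -1.14 ± 0.17, edgeR adjusted p = 1.35e-05).

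AUTS2 and SOX4 were lower in diverged cells, while undiverged cells lay near Naive B cells 1. AUTS2, a regulator of transcription named for its role in the nervous system, had 0 to 29.3 CPM in diverged cells and 44.5 to 106 CPM in undiverged cells (-2.48 ± 0.33, edgeR adjusted p = 1.25e-06), beside 42.5 to 118 CPM in Naive B cells 1. SOX4, a factor of early B cell development, had medians of 4.54 CPM in diverged cells, 44.5 CPM in undiverged cells and 51.6 CPM in Naive B cells 1 (-2.40 ± 0.37, edgeR adjusted p = 1.43e-05). AREG, a growth factor of the EGF family, and PDE3B, a phosphodiesterase, fell by 2.03 ± 0.24 and 1.78 ± 0.26. BACH2 descended over the 3 groups, with medians of 371 CPM in diverged cells, 605 CPM in undiverged cells and 1532 CPM in Naive B cells 1 (diverged minus undiverged -0.48 ± 0.09, edgeR adjusted p = 0.000566).

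**Figure D5:**
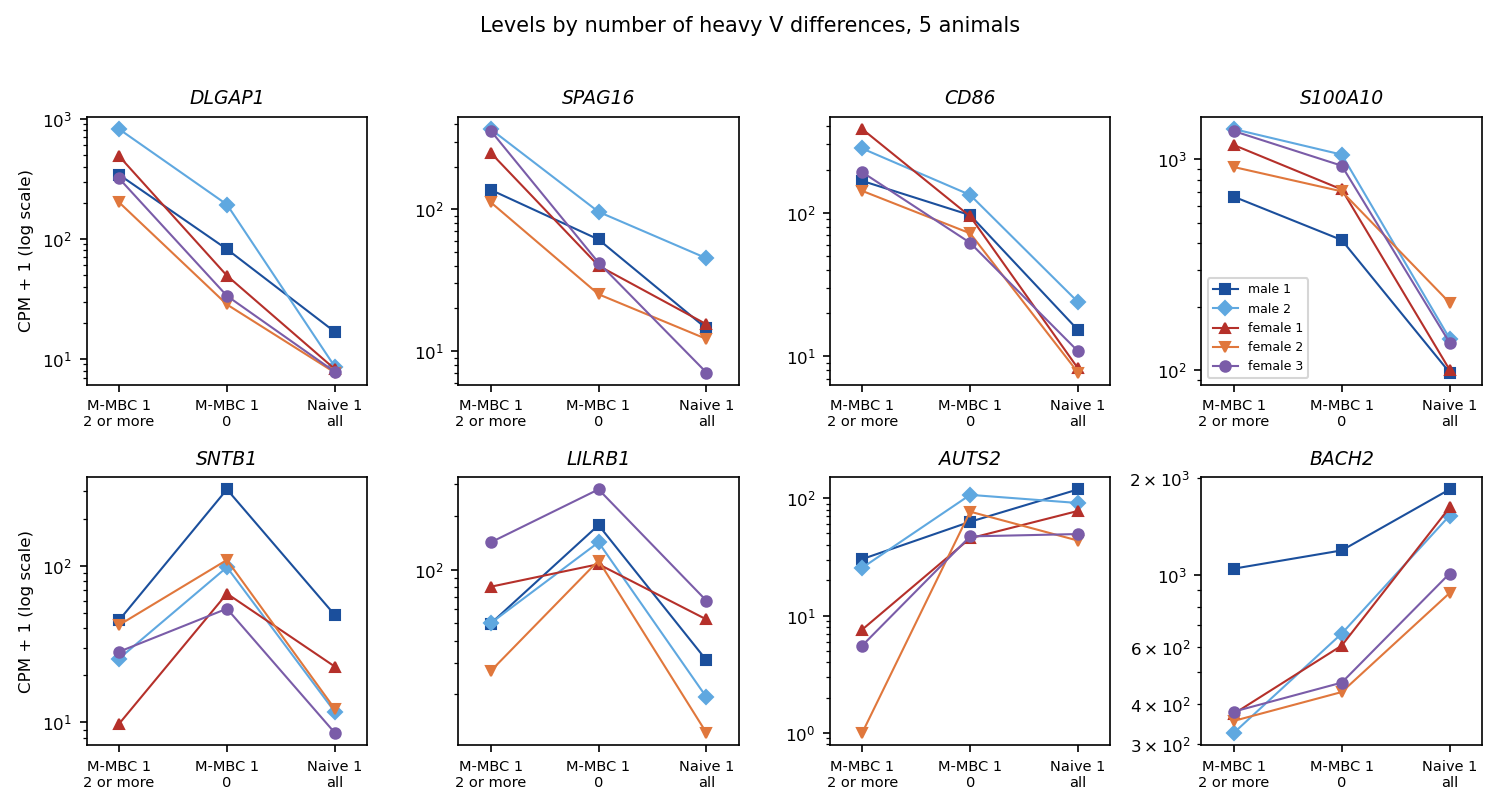
CPM plus 1 (log axis) of 8 genes in M-MBC 1 cells with 2 or more heavy V differences, M-MBC 1 cells with 0, and Naive B cells 1, 1 line for each of 5 animals. DLGAP1, SPAG16, CD86 and S100A10 descend from left to right in every animal, SNTB1 and LILRB1 are highest in the middle group in every animal, AUTS2 is lowest in diverged cells and BACH2 highest in Naive B cells 1.

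Of the 10 genes that rose most in M-MBC 1 against Naive B cells 1, DLGAP1 and RGS16 (0.82 ± 0.14) were called between diverged and undiverged cells. TOX2, TNFRSF18, ITGAX, FGR and CD80 were not called between diverged and undiverged cells, with log2 differences of -0.04 ± 0.18, -0.16 ± 0.18, -0.28 ± 0.12, -0.04 ± 0.14 and 0.27 ± 0.25. With M-MBC 1 restricted to cells with 0 heavy V differences, 1743 of 7442 genes tested were still called against Naive B cells 1. This fit held 5 animals, since female 4 had only 5 such cells. Of the 1743 genes, 1620 were among the 1936 called in 6 animals, and TOX2 and ITGAX differed by 5.46 ± 0.30 and 4.74 ± 0.17. Of the 62 genes called higher in diverged cells and tested in both comparisons, 29 were higher, 23 lower and 10 not called in M-MBC 1 against Naive B cells 1, where 13.8% of all genes were higher and 12.4% lower. Of the 59 called lower, 26 were higher, 22 lower and 11 not called. The M-MBC 1 cells enter both comparisons, so these counts are not independent of each other.

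Receptor features other than heavy V differences also varied within M-MBC 1. Light V divergence was 0.860, 1.01 and 1.41 per 100 bases in diverged cells and 0.00891, 0.108 and 0.201 in undiverged cells (lowest, median, highest of 5 animals), higher in 5 of 5 without overlap. Heavy CDR3 length was 15.5 ± 0.467 amino acids in diverged and 16.4 ± 0.298 in undiverged cells, lower in 5 of 5 animals by -0.886 ± 0.379 (SD, n = 5). The exact two-sided sign-flip permutation test gave p = 0.0625 for both, the smallest that 5 animals allow, so this design cannot pass 0.05. Kappa chains were carried by 49.1% ± 7.96 of diverged and 56.5% ± 12.7 of undiverged cells (exact permutation p = 0.1875).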

How the data were processed

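Peripheral blood mononuclear cells were captured with a 10x 5' kit and sequenced as an expression and a BCR library per animal, per the labels' protocols. The authors deposited raw UMI counts per gene and cell, a cell table with annotated clusters, the percent of UMIs from mitochondrial and ribosomal protein genes, and BCR contigs with UMI counts; the submitters' processing notes name Cell Ranger 9.0.1, Seurat 5.0.1 and R 4.3.1. Genome build and immunoglobulin reference are not given in the sources used here. All 13849 cells carried a singlet call in the deposited cell table, and no further cell filter or doublet caller was applied.

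Counts were summed per animal and cluster, sums under 10 cells were left out, and edgeR 4.0.16 (filterByExpr, TMM, quasi-likelihood F test, R 4.3.3) was fitted with a term for each animal, and p-values were adjusted by Benjamini-Hochberg over the genes tested. The pairing (replicate block) follows from each animal giving cells to both clusters. Unnamed identifiers (5813, 14.9% of UMIs, 0 matched to a name) and 23 named immunoglobulin genes (0.186%) entered neither library sizes nor tests. CPM are TMM-scaled. Numbers of cells per V or J gene were tested with the same tool without TMM. The filter planned for light chain V genes left fewer than 3, so 20 cells per gene was used, chosen after seeing the data. Receptor measures were tested by exact two-sided sign-flip permutation over animals, adjusted over 10 measures. P-values measure the spread between animals.

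Genes were named by rule: the 10 largest differences per direction (5 by divergence) among called genes with mean log2 CPM of 4 or more and 1 direction in every animal, and the list members with the smallest p. Other list members are given as counts with examples chosen after their values were seen. The members and gene lists were chosen with earlier results of these data known. On simulated counts, the method was tested before use. Alternatives covered the tool, filter, scaling, block, left-out animals, batch, choice of cells, references and clones. Python 3.11.15 was used for the rest. Some genes are not reported here.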

Additional observations from a re-analysis of the deposited data

Results flagged for a closer look

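HBA, the alpha globin gene of red cells, differed between the sexes, which are also the batches: its difference between M-MBC 1 and Naive B cells 1 was 4.46 in males and 0.77 in females on the log2 scale, a difference of 3.72 ± 0.55 (edgeR interaction, adjusted p = 0.00374). It was the 1 gene called of 7397 tested for this interaction. Male 2 stood apart from the other animals, at 4.86 against -0.93 to 1.22, so that 1 animal carries the difference.

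In each of the following results 1 animal of 6 lay apart from the rest; chance sets apart about 1 in 20 such groups, and 10 receptor measures and 82 named genes were examined. The clone share difference was 10.7 percentage points in female 4, on 28 M-MBC 1 cells, and -0.49 to 0.95 in the others. CR2 differed by -0.28 in male 1 and by -4.85 to -3.35 in the others. CST7, an inhibitor of cathepsins found in cytotoxic cells, differed by 4.39 in female 3 and by 0.40 to 1.87 in the others. BICDL1 differed by 2.60 in female 2 and by 0.34 to 1.12 in the others. PDE3B differed by -3.24 in female 4 and by -1.67 to -1.30 in the others.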

How the results depend on the processing

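The clusters' gene count of 1936 was 481 with no replicate block and 952 in males alone (2 animals), and 1517 to 1912 when 1 animal was left out, and the other settings gave 1383 to 2223; all 481 genes called without the block were among the 1936. The count of 123 by divergence was 29 with DESeq2, 0 without the block (104 at an unadjusted p under 0.05), 40 in females alone, 49 in males alone and 71 with references only from other clusters. Leaving out 1 animal gave 58 to 117, with 58 lacking female 1 and 74 lacking male 1. The IGHV count of 1 became 0 without the block (1 gene at an unadjusted p under 0.05), and the light V count of 1 became 0 without the block, without a filter and without each animal (0 to 0), by edgeR with 5, 8 and 2 to 3 genes at an unadjusted p under 0.05. The log2 hot spot ratio was 2.81 to 2.96 without 1 animal, with p = 0.0625 in the exact test, the smallest 5 animals allow. For single named genes, 1108 of the alternative values in the cluster comparison kept direction and call or were called in neither setting. Values called in neither setting were counted there even where their sign changed. A further 48 lost the call and 1 gained it, and by divergence these numbers were 867, 52 and 10. GZMB, not called at -0.30, was 0.77 with cells of any heavy chain, and the cause was not tested. HBA lost its call with DESeq2 in both comparisons. The uncalled differences of IGHV4 share (-2.42 to 3.44) and heavy chain UMIs (-0.70 to 1.00) changed sign between settings. Female 4 gave 28 M-MBC 1 cells.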
